A study of Saccharomyces cerevisiae with 23 samples.

Results

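The mitochondrial ribosomal protein genes described here are the nuclear genes of the count table whose R64 standard name is MRPL or MRPS followed by a number, or MRP followed directly by a number. The rule found 56 of the 6596 listed genes, of which 34 have MRPL names, 9 MRPS names and 13 MRP names. They lie on 12 chromosomes. By the protein families given in the RefSeq annotation, 38 of them encode proteins of the large subunit and 17 proteins of the small subunit, and MRP8 has a place in neither, so its name goes against its product. A bacterial counterpart is known for 37 members, and 18 are specific to mitochondria. All 56 members passed the low-count filter, which left 6111 genes in all.

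The mitochondrial ribosome is the machine inside mitochondria that translates the few messages of the mitochondrial genome, which in budding yeast encode core subunits of the respiratory chain and the ATP synthase. Its ribosomal RNAs are transcribed in the organelle, and nearly all of its proteins are encoded in the nucleus, made by cytosolic ribosomes and imported. Cytosolic ribosomal protein genes follow growth through regulators such as Sfp1 and Ifh1, while many messages for mitochondrial ribosomal proteins are bound in yeast by the RNA-binding protein Puf3.

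RNA was sequenced in 23 libraries of Saccharomyces cerevisiae, all labelled BY4741, a common laboratory strain, and none had a treatment. The 8 groups were a haploid control (euploid, 2 libraries), 3 populations from tetrad dissection (1 euploid, and the aneuploid T1 and T2) and 4 from a-selection (1 euploid, and the aneuploid A1, A2 and A3), with 3 libraries for each of these 7. All cultures grew overnight in YPD, a rich medium, and were refreshed in it for 4 h at 23 °C in deep-well plates before total RNA was extracted. The series set aneuploid populations whose cells carry different karyotypes against euploid populations, and each route had 1 euploid population to serve as its control. The labels do not say that libraries of 1 population came from separate cultures, so the spread behind every p-value is that between libraries and may be technical. In RNA from such mixed populations, fewer cells of a kind and less RNA per cell cannot be told apart.

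Libraries held 12719710 to 19327344 counts. A gene was called when its Benjamini-Hochberg adjusted p from edgeR's quasi-likelihood test, taken over all 6111 genes, was under 0.05, and replicate libraries were close enough (common biological coefficient of variation 5.05%) for small changes to be called. The members' counts in single libraries ran from 282 (lowest library of MRP35) to 13956 (highest library of MRP8). As a check of the labels, the summed level of 4 genes of alpha cells in CPM (counts scaled to library size with TMM factors) was 7860 ± 110.3 for euploid tetrad cells (SD, n = 3), whereas T1 had 1765 ± 2.08 and T2 had 1550 ± 12.7. The other groups had 49.9 to 79.3 CPM. The sum of 7 genes of a cells was also higher in euploid tetrad cells (5655 ± 114.1 CPM) than in T1 (2800 ± 14.6) and T2 (2630 ± 19.7), and all 7 genes fell in the tetrad route (median log2 change -0.92). The part of these differences in the values of the tetrad route was not tested. Frames of 5 members overlap another listed frame, by 2 bp (MRP4), 113 bp (MRPL19), 303 bp (MRPL9), 323 bp (MRPL51) and 366 bp (MRPL38), and their counts are uncertain, because strand use in counting was not given in the sources used here.

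Promoters are shown first. The genes that assemble the cytosolic ribosome share short promoter words, which members do not carry more often than other genes do. Whether these words have a part in any change of RNA level was not tested. The 5 sequences are the 250 bases before the start codon from the RefSeq R64 genome, read 5′ to 3′ on the strand of the gene, and capitals mark the rapid growth element AATTTT and the PAC core GATGAG on either strand. MRPL3 (chrXIII:321625-321874, plus strand), MRP13 (chrVII:648143-648392, minus strand) and MRPL20 (chrXI:599682-599931, minus strand) are the members with the largest rises in the tetrad route. MRPL28 (chrIV:1385823-1386072, plus strand) is the member with the largest fall there. MAK16 (chrI:101146-101395, minus strand) is no member. It encodes a nucleolar assembly factor of the large cytosolic subunit and had the largest rise among 36 ribosome biogenesis genes in the tetrad route.
MRPL3: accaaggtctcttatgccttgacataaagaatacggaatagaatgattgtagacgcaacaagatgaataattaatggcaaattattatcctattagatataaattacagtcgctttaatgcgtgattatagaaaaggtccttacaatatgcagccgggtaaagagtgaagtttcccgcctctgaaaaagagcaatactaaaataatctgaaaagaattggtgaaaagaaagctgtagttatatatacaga
MRP13: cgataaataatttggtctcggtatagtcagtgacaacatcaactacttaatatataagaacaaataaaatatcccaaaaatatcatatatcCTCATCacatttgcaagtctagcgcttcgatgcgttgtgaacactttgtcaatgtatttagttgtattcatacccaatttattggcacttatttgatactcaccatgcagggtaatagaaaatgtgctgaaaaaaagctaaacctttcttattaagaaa
MRPL20: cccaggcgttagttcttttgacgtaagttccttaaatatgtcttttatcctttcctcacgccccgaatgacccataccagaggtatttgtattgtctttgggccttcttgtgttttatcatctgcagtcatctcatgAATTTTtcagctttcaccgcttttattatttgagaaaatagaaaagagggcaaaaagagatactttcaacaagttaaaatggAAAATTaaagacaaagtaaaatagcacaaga
MRPL28: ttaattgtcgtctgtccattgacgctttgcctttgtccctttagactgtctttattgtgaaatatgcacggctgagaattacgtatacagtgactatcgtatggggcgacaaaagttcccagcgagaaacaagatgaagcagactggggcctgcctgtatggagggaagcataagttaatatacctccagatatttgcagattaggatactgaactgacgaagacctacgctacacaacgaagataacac
MAK16: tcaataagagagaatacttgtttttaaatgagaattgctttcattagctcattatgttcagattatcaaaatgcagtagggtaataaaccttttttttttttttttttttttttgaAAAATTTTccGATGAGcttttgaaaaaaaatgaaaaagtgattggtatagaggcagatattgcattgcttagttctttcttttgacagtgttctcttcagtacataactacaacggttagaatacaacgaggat

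No capitals appear in the windows of MRPL3 and MRPL28, the members at the upper and lower end of the tetrad changes. MRPL20 holds 2 rapid growth elements and MRP13 holds 1 PAC core, whereas MAK16 holds both words side by side. Over windows from 250 bases before to 50 bases after the start, the rapid growth element AATTTT was in 25 of 56 member promoters (44.6%), in 55.8% of 138 cytosolic ribosomal protein promoters, in all 36 ribosome biogenesis promoters and in 52.4% of all 5894 promoters. The PAC core GATGAG was in 16.1% of member promoters, 10.9% of cytosolic ribosomal protein promoters, 97.2% of ribosome biogenesis promoters and 19.9% of all. The longer word AAAATTTT, which contains the rapid growth element, was in 8.9% of member promoters, 6.5% of cytosolic ribosomal protein promoters, 91.7% of ribosome biogenesis promoters and 9.2% of all. For none of these words did the members exceed the share of all promoters. In the 250 bases before the start alone, AAAATTTT was in 3.6% of member promoters and 8.8% of all. CCAAT, the box of the Hap respiratory regulators, was in 39.3% of member promoters, 84.2% of 38 promoters of nuclear respiratory chain and ATP synthase genes and 43.8% of all. The stress element core AGGGG was in 16.1%, 47.4% and 22.0% of the same sets, and the Rap1 site core CACCCNNAC was in 1.8% of member promoters, 4.3% of cytosolic ribosomal protein promoters and 1.9% of all. A match describes letters in a window and is not a measured site. Bases farther upstream were not searched, so a low share, as for the Rap1 site core, does not show that promoters lack a site.

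The summed level of the members stayed within a narrow range over the 8 groups. The haploid control had 3600 ± 37.5 CPM (SD, n = 2). In the tetrad route the euploid population had 5489 ± 136 CPM (n = 3), T1 had 5253 ± 71.0 and T2 had 4829 ± 102. In the a-selection route the euploid population had 5405 ± 113 CPM, A1 had 5048 ± 111, A2 had 5339 ± 93.5 and A3 had 5187 ± 31.6. The haploid control was the lowest group, and its libraries did not overlap those of any population. The order of the populations depended on the scaling and on MRP8. As an unscaled share of all counts the members took 0.470% of euploid tetrad counts, below the 0.544% of T1 and the 0.540% of T2. On the TMM scale the euploid tetrad population was the highest. MRP8 alone gave 195.8 of the 3600 CPM in the haploid control and 950 of the 5489 CPM in the euploid tetrad population. Without MRP8 the euploid tetrad population was not the highest. Large-subunit members summed to 2911 ± 71.8 CPM there and to 2948 ± 60.3 in the euploid a-selection population. Small-subunit members summed to 1629 ± 46.2 and 1722 ± 47.4 CPM in the same order.

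Cytosolic ribosomal protein genes varied far more. They were taken by name, so the 138 genes counted throughout include RPP1, which encodes a subunit of ribonuclease P and no ribosomal protein. The 138 genes summed to 340100 CPM in the haploid control. In the tetrad route they summed to 15570 ± 396 CPM in euploid cells and to 60710 ± 696 for T1 and 81690 ± 1645 for T2. In the a-selection route the euploid sum was 30350 ± 1100 CPM, and the sums of A1, A2 and A3 were 56950 ± 1385, 51610 ± 735 and 82940 ± 1462. Euploid populations were lowest, aneuploid populations lay between, and the haploid control was highest. The ratio of summed cytosolic to summed mitochondrial levels was therefore 94.5 ± 0.51 in the haploid control. It was 2.84 ± 0.02 for the euploid tetrad population, 11.6 ± 0.08 for T1 and 16.9 ± 0.27 for T2. It was 5.61 ± 0.09 for the euploid a-selection population, 11.3 ± 0.26 for A1, 9.67 ± 0.25 for A2 and 15.99 ± 0.23 for A3. Within the mitochondrial set the large-subunit and small-subunit sums kept a ratio of 1.71 to 1.85 in all 8 groups. The fold between a gene's highest and lowest group mean had a median of 1.46 over the members (1.17 to 4.85), of 31.1 over the cytosolic genes and of 2.57 over the 6084 tested genes with no group at 0.

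**Figure D1:**
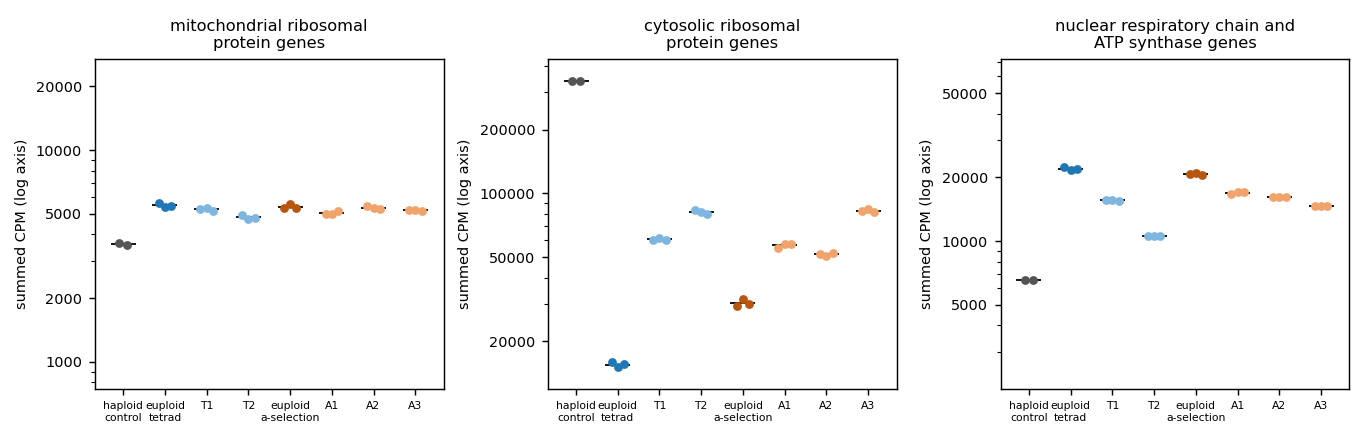
Summed TMM-scaled CPM per library (points) and group means (bars) for the 56 members, 138 cytosolic ribosomal protein genes and 38 nuclear respiratory chain and ATP synthase genes, on log axes that span the same ratio. The members, MRP8 included, run from 3600 CPM in the haploid control to 5489 CPM in the euploid tetrad population, while the cytosolic sum runs from 15570 to 340100 CPM.

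Single members differed in level and in pattern. Per kb of coding length in the haploid control, MRP8 (296.7 ± 6.01 CPM per kb, SD, n = 2), MRPS12 (273.6 ± 6.93) and MRPL51 (227.5 ± 3.53, an overlapping frame) were highest, and MRPL3 (57.9), MRPL40 (56.7) and MRPS5 (54.0) were lowest. MRPS12 is the counterpart of the bacterial protein S12 of the decoding centre, and MRPL40 that of L24 near the peptide exit. The median over members was 88.9 CPM per kb in the haploid control and between 112 and 124 in the other groups. Of the 56 members, 37 were lowest in the haploid control and 12 in the euploid tetrad population. All 7 populations were compared with the same 2 haploid libraries. No share over all tested genes was computed for the lowest groups or for calls in all 7 comparisons, so these counts have no baseline. In these comparisons 31 members were above the haploid control in all 7 populations. MRPL44, a large-subunit protein specific to mitochondria, was called below it in all 7. Its libraries held 44.9 and 38.5 CPM in the haploid control. They held 31.9, 30.7 and 33.6 CPM in the euploid tetrad population and 28.6, 30.9 and 26.9 in the euploid a-selection population. The highest library was at 38.0 CPM in T2 and at 37.1 in A3, close to the lower of the 2 haploid libraries. Over the 8 group means the pattern of MRP51 was nearest to the median of the members (Pearson r = 0.988), followed by MRP49 (0.980) and MRPS5 (0.968), while MRPL44 (-0.769), MRPL50 (-0.615) and MRPS8 (-0.484) were farthest. These likenesses are descriptions over 8 groups, and the groups share 1 scaling.

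Against the haploid control, both euploid populations had more RNA of most members and less of every cytosolic ribosomal protein gene. In the euploid tetrad population 37 members rose and 11 fell, with 47.1% and 43.6% of all tested genes called in these directions, and the members' median log2 change was 0.28 (0.09 over all genes). All 138 cytosolic ribosomal protein genes fell, with a median of -4.96, and 36 of 38 respiratory chain and ATP synthase genes rose, with a median of 1.78. In the euploid a-selection population 37 members rose and 6 fell, against 45.0% and 44.4% of all genes, with a median of 0.35 (0.04 over all genes), and the cytosolic genes again all fell, with a median of -3.88. With upper-quartile scaling the members split as 30 higher and 14 lower in the euploid tetrad population, with a median of 0.17. All tested genes then split as 2690 higher and 2825 lower. Both euploid comparisons use the same haploid libraries. Members with a bacterial counterpart rose in 28 of 37 cases in each of these comparisons, and members specific to mitochondria in 8 of 18.

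MRP8, the member outside the ribosome, changed most. It held 199 and 193 CPM in the haploid libraries, 967, 922 and 962 in the euploid tetrad libraries and 723, 743 and 739.5 in the euploid a-selection libraries, log2 changes of 2.28 ± 0.04 (SE; edgeR adjusted p = 8.57e-25) and 1.91 ± 0.04 (SE; edgeR adjusted p = 2.45e-23). MRPL28, a large-subunit protein specific to mitochondria, rose by 1.79 ± 0.05 (SE; edgeR adjusted p = 2.19e-19) in the tetrad and 1.51 ± 0.05 (SE; edgeR adjusted p = 6.78e-18) in the a-selection population. MRP20, the counterpart of bacterial L23 at the peptide exit, rose by 1.17 ± 0.05 (SE; edgeR adjusted p = 1.57e-16) in the euploid tetrad population, and MRP49, another large-subunit protein, by 1.22 ± 0.06 (SE; edgeR adjusted p = 9.02e-16) in the euploid a-selection population. Among members that fell, MRPS8, the counterpart of bacterial S8, changed by -0.80 ± 0.08 (SE; edgeR adjusted p = 1.57e-09) and -0.56 ± 0.08 (SE; edgeR adjusted p = 3.55e-07), and MRPL20 by -0.67 ± 0.05 (SE; edgeR adjusted p = 6.95e-12) and -0.36 ± 0.05 (SE; edgeR adjusted p = 1.82e-07). MRPL3 fell by 0.58 ± 0.05 in the tetrad population (SE; edgeR adjusted p = 3.09e-10), and MRPL44 changed by -0.53 ± 0.08 (SE; edgeR adjusted p = 1.18e-06) in the a-selection population.

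The aneuploid populations also stood above the haploid control. In the mean of T1 and T2, 44 members rose and 4 fell (44.0% and 44.3% of all genes), and in the mean of A1, A2 and A3, 42 rose and 5 fell (44.5% and 44.8%). Without haploid replicate 1 the members that fell numbered 2 and 3, and no count over all genes was made for those fits. Between the euploid populations, 23 members were higher and 12 lower in the a-selection population than in the tetrad population, against 35.5% and 35.1% of all genes. With upper-quartile scaling these numbers were 28 and 9 (2551 and 1816 of all genes).

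**Figure D2:**
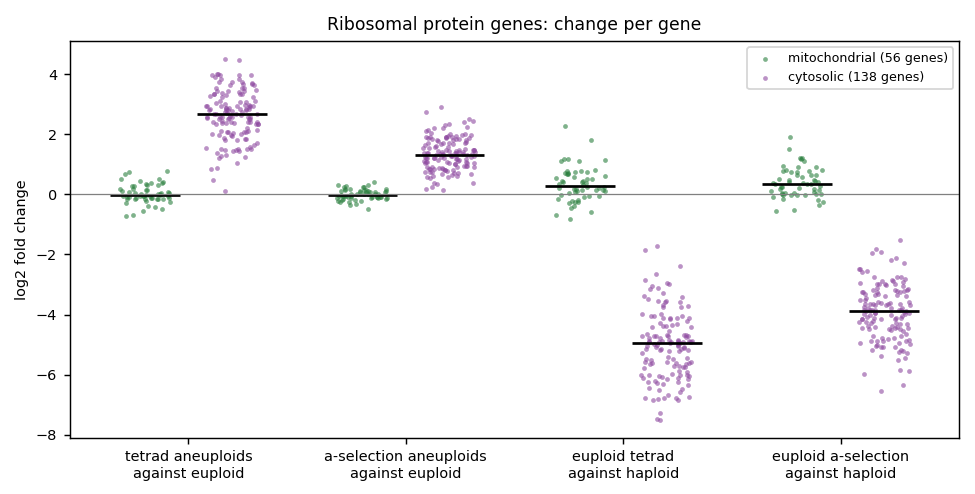
Log2 fold change of each mitochondrial (green, 56) and cytosolic (purple, 138) ribosomal protein gene in 4 comparisons, with the median as a bar. Mitochondrial members lie around 0 in both aneuploid comparisons (medians -0.02 and -0.02 with TMM scaling, 0.05 for the tetrad route with upper-quartile scaling), while the cytosolic genes have medians of 2.67 and 1.32, and of -4.96 and -3.88 in the euploid populations against the haploid control.

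The first main question was how members differed between aneuploid and euploid cells of the tetrad route. In the mean of T1 and T2 against the euploid tetrad population, 18 members rose, 20 fell and 18 were not called, when 39.9% of all tested genes rose and 44.8% fell. No member changed by 2-fold or more. The members' median log2 change was -0.02 with TMM scaling (-0.05 over all genes), but it was 0.02 with RLE scaling and 0.05 with upper-quartile scaling, and the calls then split as 24 higher and 16 lower or as 26 higher and 14 lower. All tested genes moved as well, with 2549 higher and 2619 lower with RLE scaling and 2683 and 2495 with upper-quartile scaling. Of the cytosolic ribosomal protein genes 137 of 138 rose, with a median of 2.67, and 36 of 36 ribosome biogenesis genes rose, with a median of 4.26. Respiratory chain and ATP synthase genes went the other way, with 36 of 38 lower and a median of -0.87. Large-subunit members (13 higher, 13 lower) and small-subunit members (5 higher, 6 lower) split alike. Without T2, which leaves T1 against the euploid population, the members that fell numbered 13, when 43.0% of all genes fell.

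MRPL3, a large-subunit protein related to ribonuclease III, had the largest rise. Its libraries held 45.5, 43.2 and 47.1 CPM in the euploid tetrad libraries, 75.6, 71.5 and 73.6 in T1, and 81.7, 79.6 and 81.9 in T2. All 6 aneuploid libraries were above the 3 euploid ones and above the haploid libraries, and the log2 change was 0.77 ± 0.04 (SE; edgeR adjusted p = 2.64e-14). MRP13, a small-subunit protein specific to mitochondria, held 44.7, 45.2 and 43.9 CPM in the euploid tetrad libraries, 68.8, 69.8 and 71.1 in T1, and 79.9, 77 and 80.0 in T2, a change of 0.74 ± 0.03 (SE; edgeR adjusted p = 2.58e-15) with no overlap between euploid and aneuploid libraries. MRPL20, a large-subunit protein specific to mitochondria, held 36.4, 37.7 and 36.1 CPM in the euploid tetrad libraries, 62.6, 61.4 and 57.3 in T1, and 57.1, 57.7 and 59.5 in T2. Its aneuploid libraries stood near the haploid level of 59.2 and 58.1 CPM, and its change was 0.69 ± 0.04 (SE; edgeR adjusted p = 7.87e-14). Smaller rises were those of MRPL4, the counterpart of bacterial L29 (0.52 ± 0.03 (SE; edgeR adjusted p = 6.08e-14)), MRPS8 (0.50 ± 0.06 (SE; edgeR adjusted p = 1.52e-07)) and MRPL32, the counterpart of bacterial L32 (0.44 ± 0.05 (SE; edgeR adjusted p = 3.19e-08)).

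Members that fell included several of the most abundant ones. MRPL28 held 150.2, 142 and 136 CPM in the euploid tetrad libraries, 90.9, 90.7 and 89.2 in T1, and 81.2, 83.6 and 82.2 in T2, and the haploid libraries 40.4 and 41.9. The aneuploid libraries thus lay between the haploid and the euploid tetrad levels without overlap, and the log2 change was -0.73 ± 0.04 (SE; edgeR adjusted p = 1.04e-14). MRP8 held 967, 922 and 962 CPM in the euploid tetrad libraries, 704, 726 and 692 in T1, and 523, 474 and 489.6 in T2, a change of -0.68 ± 0.03 (SE; edgeR adjusted p = 2.1e-17), and T2 was below T1 in every library. MRPS12 held 307, 277 and 263 CPM in the euploid tetrad libraries, 228, 244 and 236 in T1, and 162, 181 and 179 in T2, a change of -0.48 ± 0.04 (SE; edgeR adjusted p = 8.89e-10). MRP20 changed by -0.57 ± 0.04 (SE; edgeR adjusted p = 5.23e-13), MRPL23, the counterpart of bacterial L13, by -0.42 ± 0.04 (SE; edgeR adjusted p = 1.13e-09), and MRP10, a small-subunit protein imported as a twin-cysteine protein, by -0.40 ± 0.05 (SE; edgeR adjusted p = 8.23e-08). MRPL28, MRP20 and MRP10 lie on chromosome IV and MRPL23 on chromosome XV, where the median log2 changes of all tested genes in the tetrad route were -0.26 (738 genes) and -0.22 (524 genes). The 9 members on chromosome IV did not move alike, with changes from -0.73 to 0.19 (median -0.14), and MRPL23 is the only member on chromosome XV. The part of these chromosomes in the changes of the members was not tested.

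In the a-selection route the changes were smaller. In the mean of A1, A2 and A3 against the euploid a-selection population, 17 members rose, 21 fell and 18 were not called, when 39.8% of all genes rose and 39.0% fell. The members' median was -0.02 (0.00 over all genes), and no member changed by 2-fold. The calls split as 15 higher and 23 lower with RLE scaling (2362 and 2470 of all genes) and as 19 higher and 16 lower with upper-quartile scaling (2512 and 2281). Of the cytosolic ribosomal protein genes 133 of 138 rose, with a median of 1.32, and 35 of 38 respiratory chain and ATP synthase genes fell, with a median of -0.35. Without A3 the members that rose numbered 11, and no count over all genes was made for that comparison.

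MRPL20 had the largest rise, and its libraries held 43.7, 46.1 and 47.3 CPM in the euploid a-selection libraries, 54.9, 51.6 and 57.2 in A1, 61.5, 60.8 and 59.3 in A2, and 71.7, 66.5 and 67.4 in A3. A1, A2 and A3 were all above the euploid libraries, with a log2 change of 0.42 ± 0.03 (SE; edgeR adjusted p = 1.26e-10). MRPS17, the counterpart of bacterial S17, held 95.1, 96.8 and 96.2 CPM in the euploid a-selection libraries, 113, 118 and 123 in A1, 117, 119 and 109 in A2, and 109, 113 and 113 in A3, a change of 0.26 ± 0.03 (SE; edgeR adjusted p = 3.22e-07) without overlap. Next to MRPL20 in size were MRP4, the counterpart of bacterial S2 (0.31 ± 0.03 (SE; edgeR adjusted p = 1.31e-10)), and MRPL6, the counterpart of bacterial L6. MRPL6 held 92.4, 97.8 and 92.6 CPM in the euploid a-selection libraries, 108, 115 and 113 in A1, 122, 126 and 127 in A2, and 113, 113 and 109 in A3, a change of 0.30 ± 0.03 (SE; edgeR adjusted p = 1.53e-08). Both are the only members on chromosome VIII, and the median log2 change of the 274 tested genes of that chromosome was 0.40 in A1, 0.47 in A2 and 0.45 in A3, against 0.04 in T1 and 0.11 in T2. In those populations MRPL6 changed by 0.25 ± 0.04, 0.41 ± 0.04 and 0.24 ± 0.04 in A1, A2 and A3 and by 0.03 ± 0.04 and -0.16 ± 0.04 in T1 and T2. MRP4 changed by 0.17 ± 0.03, 0.35 ± 0.03 and 0.43 ± 0.03 and by 0.26 ± 0.03 and 0.32 ± 0.03 in the same order. MRPS8 (0.29 ± 0.06 (SE; edgeR adjusted p = 8.48e-05)) and MRPL13, a large-subunit protein specific to mitochondria (0.24 ± 0.04 (SE; edgeR adjusted p = 8.06e-06)), also rose. MRPL20 and MRPL13 lie on chromosome XI, whose 313 tested genes had median log2 changes of 0.18, 0.25 and 0.24 in A1, A2 and A3, and of 0.11 and -0.02 in T1 and T2. The 7 members on chromosome XI did not move alike, with changes from -0.16 to 0.42 in the a-selection route (median 0.18). The part of chromosomes VIII and XI in the changes of these members was not tested.

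MRPS12 had the largest fall in the a-selection route, and its libraries held 290.4, 306 and 276 CPM in the euploid a-selection libraries, 212, 216 and 222 in A1, 222, 206 and 207 in A2, and 181, 198 and 198 in A3. All 9 aneuploid libraries were below the 3 euploid ones, and the log2 change was -0.49 ± 0.04 (SE; edgeR adjusted p = 1.8e-10). MRPL23 changed by -0.34 ± 0.04 (SE; edgeR adjusted p = 1.15e-08) and MRPL36, the counterpart of bacterial L31, by -0.34 ± 0.03 (SE; edgeR adjusted p = 1.18e-09). MRP20 (-0.25 ± 0.03 (SE; edgeR adjusted p = 4.61e-07)), MRPL28 (-0.24 ± 0.03 (SE; edgeR adjusted p = 1.17e-06)) and MRPS9, the counterpart of bacterial S9 (-0.24 ± 0.03 (SE; edgeR adjusted p = 7.02e-08)), fell by less.

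**Figure D3:**
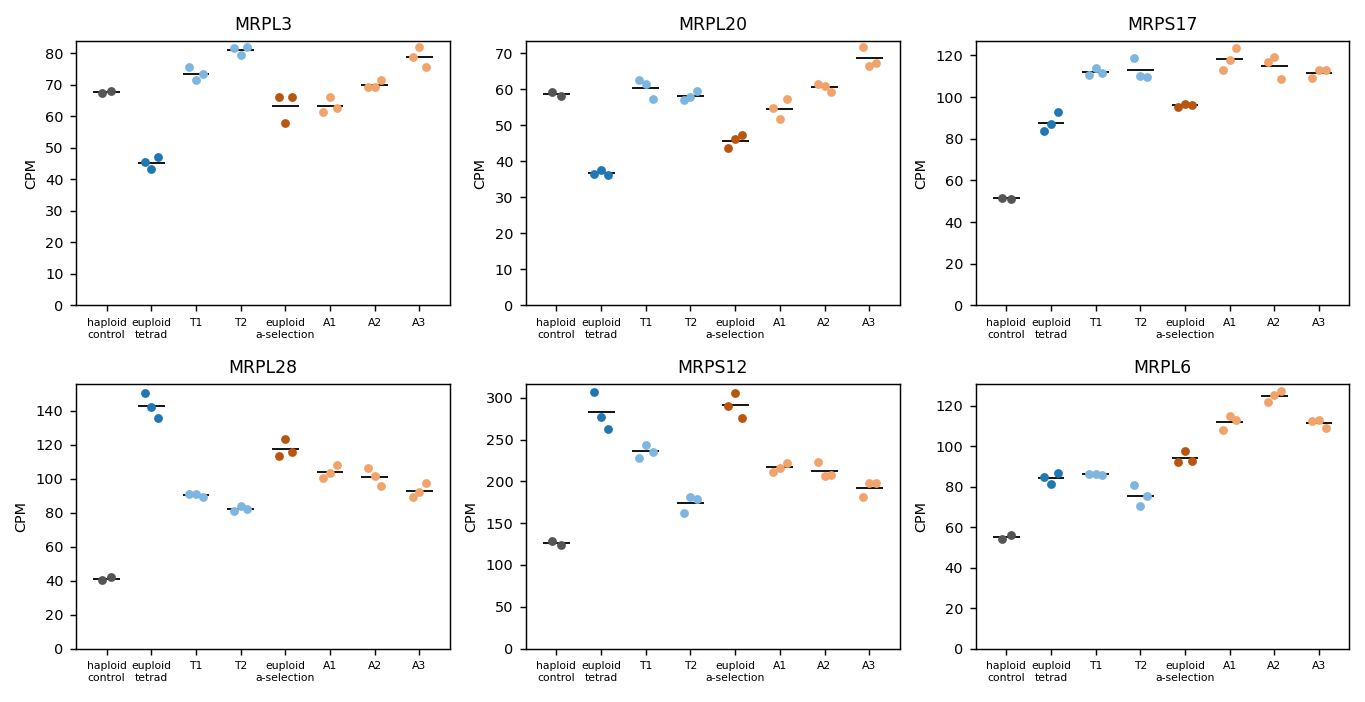
TMM-scaled CPM of 6 members in each library (points) with group means (bars), on linear axes from 0. MRPL3 and MRPL20 are lowest in the euploid tetrad population, MRPS17 and MRPL6 are lowest in the haploid control, and MRPL28 and MRPS12 are high in both euploid populations and lower in every aneuploid population.

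Which members moved was partly shared by the routes, which have no library in common. Both routes raised 11 members and lowered 14, 4 were called in opposite directions and 9 in neither. Of all tested genes 30.0% rose in both routes and 31.3% fell in both, 3.94% were higher in the tetrad and lower in the a-selection route, 5.89% the reverse, and 7.63% were called in neither. Across the 56 members the log2 changes of the routes had a Pearson r of 0.617, against 0.790 over all 6111 genes and 0.811 over the cytosolic ribosomal protein genes. These are descriptions over genes, which share the libraries and are not independent replicates. The members' changes had a SD of 0.322 in the tetrad and 0.181 in the a-selection route, against 1.24 and 0.764 over all genes.

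**Figure D4:**
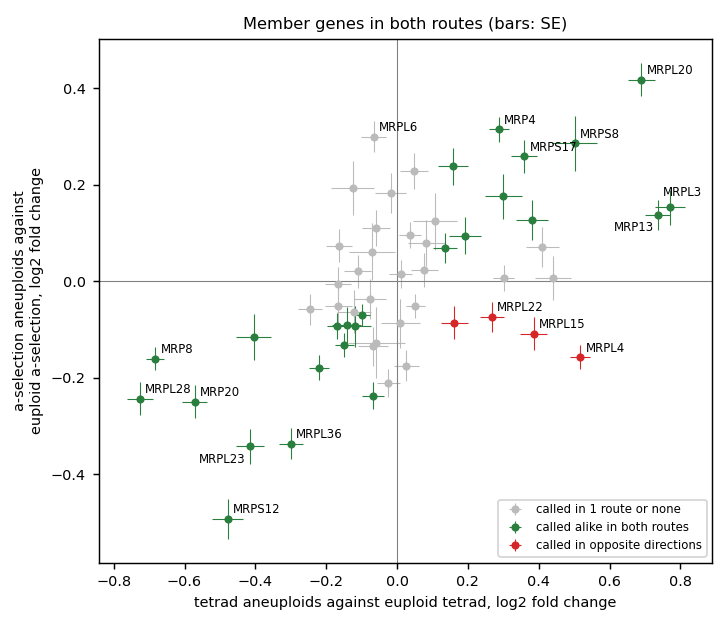
Log2 change of each member in the tetrad route (x axis) and the a-selection route (y axis), with SE bars. Of the 56 members, 25 were called alike in both routes (green), 4 in opposite directions (red), and MRPL20 and MRPS12 are the farthest along the shared diagonal.

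The 4 members called in opposite directions were MRPL4, MRPL15, MRPS35 and MRPL22, each higher in the tetrad route and lower in the a-selection route. MRPL4 held 63, 60.5 and 59.9 CPM in the euploid tetrad libraries, 93.1, 93.5 and 96.6 in T1, and 81.5, 79.9 and 81.6 in T2. In the other route it held 86.1, 83.6 and 83.2 CPM in the euploid a-selection libraries, 74.8, 70.9 and 76.5 in A1, 75.4, 77.9 and 78.6 in A2, and 75.5, 73.5 and 77 in A3, so that the euploid a-selection libraries were above the aneuploid ones. Its changes were 0.52 ± 0.03 and -0.16 ± 0.03, and the difference between them was 0.67 ± 0.04 (SE; edgeR adjusted p = 2.45e-13). For MRPL15, a large-subunit protein specific to mitochondria, the changes were 0.39 ± 0.04 and -0.11 ± 0.03, with a difference of 0.50 ± 0.05 (SE; edgeR adjusted p = 9.35e-09). The falls of MRPS35 (-0.09 ± 0.03 (SE; edgeR adjusted p = 0.0289)) and MRPL22, the counterpart of bacterial L22 (-0.07 ± 0.03 (SE; edgeR adjusted p = 0.0321)), were small and were no longer called with upper-quartile scaling.

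A test of the difference between routes called 16 members with the larger (more positive) change in the tetrad route and 13 with the smaller, against 33.1% and 38.6% of all genes. With TMM factors computed without the cytosolic ribosomal protein and ribosome biogenesis genes, these numbers were 24 and 8 (2375 and 1963 of all genes). With upper-quartile scaling they were 20 and 10 (2271 and 2078). Beside MRPL4, the largest positive differences were those of MRPL3 (0.62 ± 0.05 (SE; edgeR adjusted p = 6.71e-10)) and MRP13 (0.60 ± 0.05 (SE; edgeR adjusted p = 6.56e-11)). MRP8 (-0.52 ± 0.04 (SE; edgeR adjusted p = 6.57e-12)), MRPL28 (-0.48 ± 0.05 (SE; edgeR adjusted p = 1.57e-08)) and MRPL6 (-0.37 ± 0.05 (SE; edgeR adjusted p = 4.31e-07)) had the largest negative ones.

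Each aneuploid population was also set against its own euploid population, which the populations of a route share. T1 had 21 members higher and 13 lower (38.2% and 43.0% of all genes), and T2 had 18 higher and 23 lower (40.5% and 44.4%). With upper-quartile scaling T1 gave 26 and 10 (2540 and 2388 of all genes), and T2 gave 25 and 17 (2723 and 2456). A1 had 9 higher and 22 lower (36.6% and 35.7%), A2 had 16 higher and 11 lower (36.4% and 35.9%), and A3 had 18 higher and 16 lower (40.2% and 39.7%). The largest rise was that of MRPL20 in T1 (0.72 ± 0.04), A2 (0.41 ± 0.04) and A3 (0.59 ± 0.04), of MRPL3 in T2 (0.84 ± 0.05) and of MRPS17 in A1 (0.30 ± 0.04). The largest fall was that of MRPL28 in T1 (-0.66 ± 0.04), MRP8 in T2 (-0.94 ± 0.03), MRPL23 in A1 (-0.43 ± 0.05) and MRPS12 in A2 (-0.46 ± 0.05) and A3 (-0.60 ± 0.05).

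In all 5 populations MRP4, MRPL20, MRPS8 and MRPS17 rose, and MRPL10, MRPL23, MRPL28, MRPL36, MRP20 and MRPS12 fell. These are 7.14% and 10.7% of the members, against 21.8% and 21.8% of all tested genes, while 131 of 138 cytosolic ribosomal protein genes rose in all 5. MRPL10, named here after its values were seen, is the counterpart of bacterial L15. A further 10 members (17.9%) were called in both directions across the populations, against 19.9% of all tested genes. MRP2, MRP21, MRP35 and MRPS28 (7.14%) were called in none of them, against 3.88% of all.

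**Figure D5:**
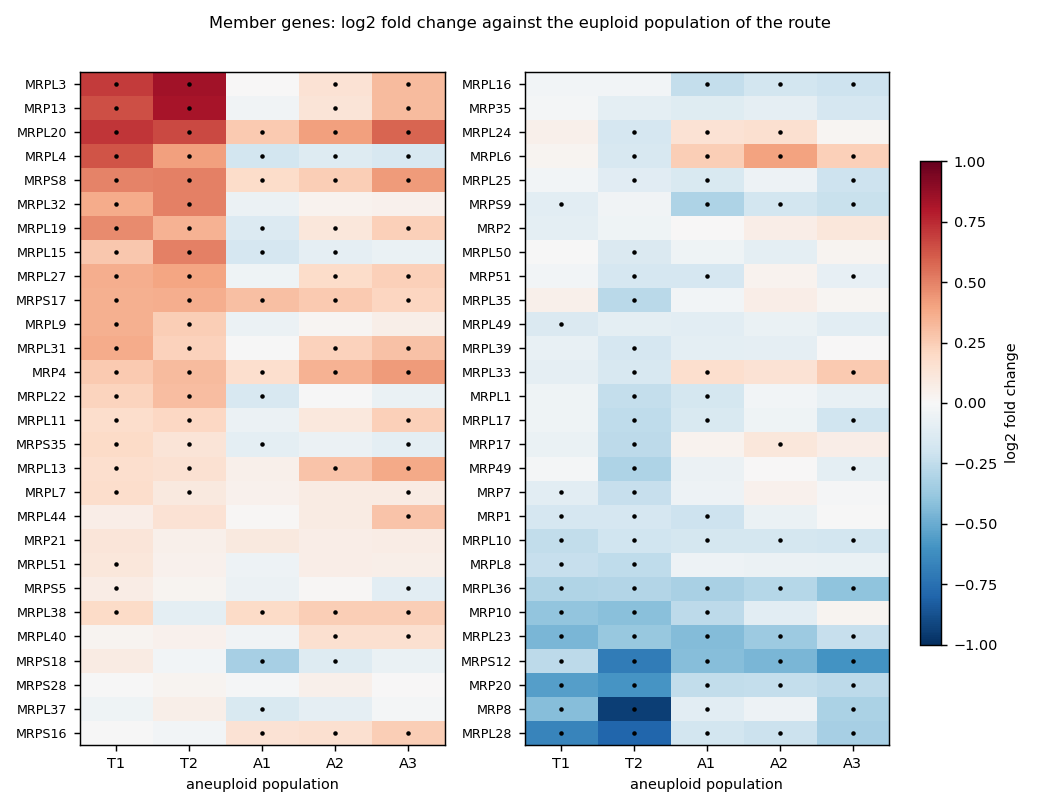
Log2 change of every member in each aneuploid population against the euploid population of its route, ordered by the tetrad change, with a dot where edgeR called the change. Values run from -0.94 (MRP8 in T2) to 0.84 (MRPL3 in T2), and most members mix weak positive and negative values.

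Populations of 1 route differed from each other. T2 had 4 members higher and 19 lower than T1, against 35.9% and 33.2% of all genes, while 129 of 138 cytosolic ribosomal protein genes were higher in T2. With upper-quartile scaling the members split as 9 higher and 13 lower, and all genes as 2386 and 1842. MRP8 (-0.51 ± 0.03 (SE; edgeR adjusted p = 4.64e-13)), MRPS12 (-0.44 ± 0.05 (SE; edgeR adjusted p = 1.16e-07)) and MRPL35, a large-subunit protein specific to mitochondria (-0.32 ± 0.04 (SE; edgeR adjusted p = 4.48e-07)), were lowest, and MRPL15 (0.24 ± 0.04 (SE; edgeR adjusted p = 1.61e-05)), MRP13 (0.18 ± 0.04 (SE; edgeR adjusted p = 0.000144)) and MRPL3 (0.14 ± 0.04 (SE; edgeR adjusted p = 0.00518)) were highest. Among A1, A2 and A3, edgeR's F test called 31 of 56 members and 73.8% of all genes. The smallest p-values were those of MRP13, MRP8, MRP4 and MRPL20, of which MRP13 changed by -0.04 ± 0.04, 0.13 ± 0.04 and 0.32 ± 0.04 in A1, A2 and A3.

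When counts were summed per population and the 7 populations were the units, with terms for route and ploidy, edgeR called 2 members higher and 4 lower, against 14.2% and 11.0% of all genes. MRPL20 (0.56 ± 0.13) and MRPS17 (0.32 ± 0.08) were higher, and MRPL23 (-0.36 ± 0.08), MRP20 (-0.39 ± 0.10), MRPL28 (-0.46 ± 0.12) and MRPL36 (-0.30 ± 0.08) were lower. Without T1, T2, A2 or A3 no member was called, and 0 of 138 cytosolic ribosomal protein genes (125 with all populations) and 0 to 3 of all genes were called in those fits. Without A1, MRPL20 alone among the members was called. Over these 5 omissions the members' median log2 change was between -0.0046 and 0.0321 and that of the cytosolic genes between 1.77 and 2.05. In the authors' deposited table, which compares aneuploid with euploid populations, no member had an adjusted p under 0.05 (of all genes 2.68% were higher and 0.839% lower), and the lowest was 0.205. At an unadjusted p under 0.05 that table had 5 members higher and 6 lower, against 24.7% and 24.4% of all genes. Of 138 cytosolic ribosomal protein genes, 38 passed by adjusted p in the authors' deposited table, all higher.

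Other genes of mitochondrial translation were taken from lists chosen by function. Beside every list stand the shares of all tested genes, 39.9% higher and 44.8% lower in the tetrad route. In the a-selection route these shares were 39.8% and 39.0%. Of 23 further genes listed for the mitochondrial ribosome under other names, 8 rose and 8 fell in the tetrad route (median 0.04). In the a-selection route 5 rose and 11 fell (median -0.07). This list includes RSM22, which had its largest rise in the tetrad route. RSM22, a small-subunit assembly protein related to methyltransferases, rose by 1.40 ± 0.05 (SE; edgeR adjusted p = 4.71e-18) in the tetrad route, from 17.9 ± 0.78 CPM in the euploid population to 47.1 ± 0.90 in T1 and 47.5 ± 0.83 in T2. RSM10 (-0.75 ± 0.03 (SE; edgeR adjusted p = 3.02e-17)) and RSM7 (-0.35 ± 0.02 (SE; edgeR adjusted p = 5.13e-13)), counterparts of bacterial S10 and S7, fell. RSM7 differed most between euploid populations and the haploid control, where it was 3.01 ± 0.03 (SE; edgeR adjusted p = 6.64e-28) higher in the tetrad population and 3.17 ± 0.03 (SE; edgeR adjusted p = 3.31e-28) higher in the a-selection population.

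For the small lists that follow, the shares of all tested genes were again 39.9% higher and 44.8% lower in the tetrad route. They were 39.8% and 39.0% in the a-selection route. Translation factors of mitochondria numbered 9. They split as 1 higher and 2 lower in the tetrad route (median 0.03), where MEF1, an elongation factor, rose by 0.54 ± 0.03 and MRF1, a release factor, changed by -0.49 ± 0.03. In the a-selection route 1 was higher and 8 lower (median -0.16). Of 13 mitochondrial tRNA synthetases 5 rose and 5 fell in the tetrad route (median -0.01) and 3 rose and 6 fell in the a-selection route (median -0.06), and DIA4, the seryl-tRNA synthetase, rose in both (0.92 ± 0.05 and 0.75 ± 0.04). Among 8 assembly genes 4 rose and 2 fell in the tetrad route (median 0.14) and 4 rose and 3 fell in the a-selection route (median 0.04), with MRH4, a helicase, at 0.71 ± 0.08 and 0.43 ± 0.07 and MTG1, a GTPase, at -0.66 ± 0.03 and -0.22 ± 0.03. Translational activators and genes listed with them, among them OXA1 and MBA1, which are no activators, numbered 17. Of these, 5 were higher and 10 lower in the tetrad route (median -0.18), and 3 higher and 9 lower in the a-selection route (median -0.08). Of 5 genes of mitochondrial transcription and DNA maintenance, 2 rose and 3 fell in the tetrad route (median -0.29) and 1 rose and 3 fell in the a-selection route (median -0.24).

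Among 15 regulators of ribosomal and respiratory genes, 5 rose and 6 fell in the tetrad route (39.9% and 44.8% of all genes). In the a-selection route 6 rose and 7 fell (39.8% and 39.0% of all genes). IFH1, a coactivator of cytosolic ribosomal protein genes, rose in both (1.54 ± 0.06 (SE; edgeR adjusted p = 2.01e-17) and 0.59 ± 0.05 (SE; edgeR adjusted p = 2.54e-10)). SFP1, which activates ribosomal genes, had 0.01 ± 0.04 (SE; edgeR adjusted p = 0.769) and -0.10 ± 0.04 (SE; edgeR adjusted p = 0.0251), and PUF3 had -0.03 ± 0.05 (SE; edgeR adjusted p = 0.651) and -0.50 ± 0.05 (SE; edgeR adjusted p = 2.09e-09). HAP4, the activating subunit of the Hap complex, differed between the routes, with -0.21 ± 0.03 (SE; edgeR adjusted p = 3.79e-07) in the tetrad route and 1.25 ± 0.03 (SE; edgeR adjusted p = 8.01e-21) in the a-selection route, and the difference was -1.46 ± 0.04 (SE; edgeR adjusted p = 2.99e-19). Its levels were 308 ± 14.6 CPM in the euploid tetrad population and 122 ± 5.82 CPM in the euploid a-selection population, against 269 ± 6.35 CPM (n = 2) in the haploid control.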

How the data were processed

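The authors deposited unnormalized counts for each gene and library. The submitters' processing notes name build R64, HTSeq 0.6.1p1, HISAT2 2.0.5, DESeq2 1.14.1, FastQC 0.11.5 and bcl2fastq 2.17.1.14. The handling of strand and shared reads was not given in the sources used here. Per the file headers, the authors' deposited table of 1 comparison gives each gene's log2 fold change, its standard error, a test score, p-value columns and a normalized mean level, here treated as a signal.

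Counts were scaled with TMM, filtered with filterByExpr over the 8 groups and fitted with edgeR 4.0.16 (quasi-likelihood, 1 coefficient per group, 15 residual degrees of freedom). The contrasts are differences of group means, and each SE was derived from the F statistic. Another fit used the summed counts of each population as units. Benjamini-Hochberg adjustment ran over all 6111 tested genes. Lists and members were described by counts and medians and were not tested as sets.

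The members, the lists, the words searched in promoters and the rule for named genes were chosen with earlier results of these data known. Named members were up to 6 per direction and route by size with the same sign in each population, those called in opposite directions, the 3 most extreme of other contrasts (1 per population), the 4 smallest p among A1, A2 and A3, the highest and lowest per length, those nearest to and farthest from the median pattern, MRP8, and 2 genes per direction of each related list with 4 regulators, of which the text gives some. Of 177 list genes asked by name, 2 were not found. Subunits and families came from RefSeq, and start and end coordinates of the reference matched the authors' table for 99.966% and 99.948% of 5809 genes. No replicate pair agreed within sampling noise, and all 23 libraries entered. Alternatives were RLE and upper-quartile scaling, TMM without cytosolic ribosome genes, other filters, DESeq2 1.42.0, a replicate block, a threshold of 0.01, only the groups compared, and leaving out each library or population. The steps were run on simulated counts in which few genes changed, as many up as down. Far more genes were called in these data, so the simulation does not test the scaling used here.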

Additional observations from a re-analysis of the deposited data

Results flagged for a closer look

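Changes that differed between populations or routes by a test of the difference itself are listed here as values. By the edgeR test of the tetrad change against the a-selection change, 16 of 56 members had the more positive change in the tetrad route and 13 the more negative. Of all tested genes, 33.1% and 38.6% were called in these directions. On the log2 scale this difference was 0.67 for MRPL4, 0.62 for MRPL3, 0.60 for MRP13, 0.50 for MRPL15, 0.34 for MRPL22 and 0.25 for MRPS35. It was -0.52 for MRP8, -0.48 for MRPL28 and -0.37 for MRPL6. Within the a-selection route, 31 of 56 members differed among A1, A2 and A3, against 73.8% of all genes. Within the tetrad route, 4 members were higher and 19 lower in T2 than in T1, against 35.9% and 33.2% of all genes. The 6 members with the largest differences between routes, 3 in each direction, also differed between the euploid controls: MRPL4 (0.46 ± 0.03), MRPL3 (0.49 ± 0.05) and MRP13 (0.42 ± 0.04) were higher in the euploid a-selection than in the euploid tetrad population, and MRP8 (-0.37 ± 0.03) and MRPL28 (-0.28 ± 0.04) were lower. MRPL6, whose change was the more negative in the tetrad route as well, was higher (0.16 ± 0.04). The difference between routes contains both euploid populations, so it and these values are not independent.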

How the results depend on the processing

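Counts of called members depended mostly on which populations entered and on the scaling. Members lower in the tetrad route numbered 13 without T2 (20 with it), and members higher in the a-selection route numbered 11 without A3 (17 with it). Of all tested genes 43.0% fell in the tetrad route without T2 (44.8% with it). No count over all tested genes was made without A3 or without single libraries. With the population as unit, the 2 higher and 4 lower members became 0 and 0 without T1, T2, A2 or A3, and 1 and 0 without A1. Members higher in T2 than T1 numbered 9 with upper-quartile scaling (4 with TMM), and members with the more negative tetrad change numbered 8 with TMM factors computed without cytosolic ribosomal protein and ribosome biogenesis genes (13 with all genes). Over all tested genes the first count was 2386 (2192 with TMM) and the second 1963 (2356 with factors from all genes). The median log2 change of the members in T2, -0.03, was 0.0565 with upper-quartile scaling, 0.0404 with those TMM factors and 0.0261 when only the groups compared were fitted. The cause of these changes was not tested. Of the tetrad calls, 31 to 38 of 38 kept their direction and call over the alternatives run, and of the a-selection calls 30 to 38 of 38, with 0 called the other way. Leaving out 1 library at a time gave 18 to 19 members higher and 18 to 24 lower in the tetrad route, 14 to 19 and 15 to 22 in the a-selection route, 2 to 6 lower in the tetrad aneuploids than in the haploid control and 3 to 6 lower in the a-selection aneuploids. The fit with the replicate number as a block gave 18 higher and 19 lower in the tetrad route and 18 and 20 in the a-selection route. Same-numbered libraries did not deviate together (median correlation 0.0045 over 77 pairs, range -0.17 to 0.263, against a highest of 0.246 over 154 pairs with different numbers), so the numbers were not taken to pair samples. Scaling shifted the median of all genes by over 0.1 only for the euploid tetrad population against the haploid control, by -0.11 with upper-quartile scaling and with TMM factors without those genes, where the members' median was 0.17 in both cases. Alternatives for the single populations, for the aneuploids against the haploid control and for the differences among A1, A2 and A3 (28 to 33 members without 1 library; DESeq2 was not run for it) were chosen after seeing the data. Each population stands for itself: with 1 euploid population per route, a difference of ploidy and a difference of that population cannot be told apart.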
